A study of Mus musculus with 12 samples.

Results

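Glutathione is the main thiol of the cytosol, a tripeptide of glutamate, cysteine and glycine that cells use to reduce peroxides and to conjugate foreign compounds. The 9 genes examined cover its life cycle in B16 cells, a mouse melanoma line: cystine import (Slc7a11), synthesis (Gclc, Gclm, Gss), reduction of the oxidised form (Gsr), and breakdown (Ggt1, Chac1, Ggct, Oplah). They were found by gene symbol among the 24421 genes of the deposited table, and all 9 were present. The set was chosen by function and in part selected on measured values, since the increases of Ggt1 and Chac1 on Elp3 knockdown were known when it was drawn up. Those increases are therefore given as a description with no test, and the other 7 members were tested.

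The cells had been transduced with lentivirus that expressed either a non-relevant shRNA (shControl) or the single Elp3-directed hairpin sh309 (shElp3), and both groups grew in DMEM with serum, antibiotics and L-glutamine. Elp3 is the catalytic subunit of Elongator, which starts the modification of the wobble uridine of a set of tRNAs. Each culture gave a total RNA library and a library of ribosome-protected fragments (RPF), the pieces of mRNA that ribosomes shield from nuclease. There were 3 cultures per shRNA, lettered A to C, hence 12 libraries. Nothing in the labels says that these were separate transductions, so p-values measure only the spread between these samples. With 1 hairpin per group an effect of Elp3 loss and an effect of that hairpin on other targets cannot be told apart.

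Total counts per library ran from 7914369 to 16527864 for RNA and from 7619269 to 10998570 for RPF. Elp3 itself was at 47.4% of the control level in shElp3 RNA and at 52.3% in shElp3 RPF, with no overlap between the groups in either fraction. The edgeR adjusted p was 0.0831 for Elp3 in RNA, short of the 0.05 threshold, and 0.0249 in RPF. Letter A stood apart in control RNA, where its Spearman correlation across genes was 0.895 with B and 0.888 with C, against 0.993 for B with C. Among the members, the letter A library was the highest of the 3 in control RNA for 7 of the 9 genes, and in control RPF for 6 of 9. How often letter A was the highest over all genes was not counted. Melanocyte markers were abundant, with summed levels of 6080 to 12100 CPM (counts scaled to library size, TMM factors applied) over the RNA libraries, and all 9 of them were detected above 1 CPM. Of the 8 endothelial and epithelial markers none reached 1 CPM, and of the 9 leukocyte and macrophage markers 2 did.

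Cystine enters the cell in exchange for glutamate through an antiporter whose transport subunit is the product of Slc7a11. Inside, cystine is reduced to cysteine, glutamate-cysteine ligase joins cysteine to glutamate in the step that limits the rate of synthesis, and glutathione synthetase adds glycine. Breakdown runs at the cell surface through gamma-glutamyltransferase and in the cytosol through Chac1, and the cyclic product 5-oxoproline is opened to glutamate by Oplah. Transcription of the import and synthesis genes is known to respond to NRF2, which binds antioxidant response elements, while ATF4 acts through C/EBP-ATF response elements in genes of amino acid supply.

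Both kinds of element were searched for in the 250 bases before each start site with a RefSeq promoter sequence (GRCm38.p6, the same assembly as mm10). Both strands were read, with TGATGNAA for the C/EBP-ATF element and TGACNNNGC for the core of the antioxidant element. Some gene spans, such as those of Slc7a11 and Ggt1, reach upstream of their windows, and starts there were not searched. The 2 patterns share no match in the windows printed here. A sequence was present for 6 of the 9 members, which leaves Gclc, Gsr and Oplah named only. Windows for 3 genes are shown because the C/EBP-ATF letters occur before Slc7a11 and Chac1, the tested member with the highest log2 values and a member that the choice used, while Gclm has the antioxidant element letters. Capitals mark the matches, and each run reads 5′ to 3′ on the strand of the gene, ending at the base before the start.

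Slc7a11, chr3:50443614-50443863, minus strand: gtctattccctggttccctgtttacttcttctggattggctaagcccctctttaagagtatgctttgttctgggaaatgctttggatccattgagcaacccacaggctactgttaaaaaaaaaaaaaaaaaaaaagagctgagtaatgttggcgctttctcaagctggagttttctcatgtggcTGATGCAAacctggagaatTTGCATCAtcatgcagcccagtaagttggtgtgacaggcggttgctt

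Chac1, chr2:119350992-119351241, plus strand: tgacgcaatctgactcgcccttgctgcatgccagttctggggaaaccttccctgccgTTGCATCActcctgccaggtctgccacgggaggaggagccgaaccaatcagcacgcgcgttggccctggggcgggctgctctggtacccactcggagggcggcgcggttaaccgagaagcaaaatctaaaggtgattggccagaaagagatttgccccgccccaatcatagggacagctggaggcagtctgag

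Gclm, chr3:122245307-122245556, plus strand: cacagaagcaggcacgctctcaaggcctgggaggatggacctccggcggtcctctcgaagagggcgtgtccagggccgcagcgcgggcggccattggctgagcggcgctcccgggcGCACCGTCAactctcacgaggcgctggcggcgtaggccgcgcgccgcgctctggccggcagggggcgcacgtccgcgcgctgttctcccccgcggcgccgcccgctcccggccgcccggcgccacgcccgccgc

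The Slc7a11 window holds the C/EBP-ATF letters at both -66 to -59 and -47 to -40, the second on the opposite strand, and the Chac1 window holds them once, at -193 to -186 on the opposite strand. These letters occur in 3.45% of all 32851 windows of that length, and in none of the windows of Gclm, Gss, Ggct and Ggt1. The antioxidant core letters occur in 10.2% of all windows. They lie at -134 to -126 before Gclm, at -174 to -166 before Ggct, and before 2 of the 4 start sites listed for Ggt1, at -36 to -28 and at -83 to -75. Neither pattern was found before Gss. A match of letters is a description and is not a measured binding site.

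Cystine import was the tested step with the highest values on knockdown. Slc7a11 lies on chromosome 3 (50364936 to 50499087). In total RNA its levels were 45.9, 57.6 and 78.5 CPM in control libraries A, B and C, and 147.5, 101.6 and 154.9 CPM in shElp3. Every knockdown library lay above every control library. The log2 fold change was 1.15 (SE 0.29, 95% interval 0.48 to 1.82), or 2.22-fold, which did not pass the edgeR quasi-likelihood test over all genes (adjusted p = 0.140, threshold 0.05). In footprints the levels were 49.4, 51.6 and 69.1 CPM in control and 92.1, 85.5 and 121.4 CPM in shElp3, again without overlap. There the log2 fold change was 0.81 (SE 0.20, interval 0.36 to 1.27; edgeR adjusted p = 0.0597). The difference between shElp3 and control within letters A, B and C was 1.68, 0.82 and 0.98 in RNA and 0.89, 0.73 and 0.81 in footprints (where letters were not taken as pairs), all on the log2 scale. Since these are bulk samples, a change in the share of cells with the transcript and a change in RNA per cell cannot be told apart, for this and every later value.

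The call for Slc7a11 depended on the fit. When the replicate letter entered as a block, the RNA change was 1.16 and was called (edgeR adjusted p = 0.00147), in a fit that called 12.2% of all genes. In RNA it was also called by DESeq2 (adjusted p = 0.0132, 5.31% of all genes called) and from letters B and C alone (0.92, adjusted p = 0.00299, 19.4% called). In footprints it was called by DESeq2 (adjusted p = 0.00611, 11.5% of all genes called), with upper quartile factors (0.0463, 4.82%), without a count filter (0.0331, 4.36%), from letters B and C alone (0.0135, 21.7%) and without control library A (0.0179, 24.8%). Over all settings its log2 fold change ran from 0.92 to 1.38 in RNA and from 0.65 to 0.98 in footprints. Over the same settings the edgeR and DESeq2 adjusted p ran from 0.00147 to 0.493 in RNA and from 0.00611 to 0.186 in footprints.

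**Figure D1:**
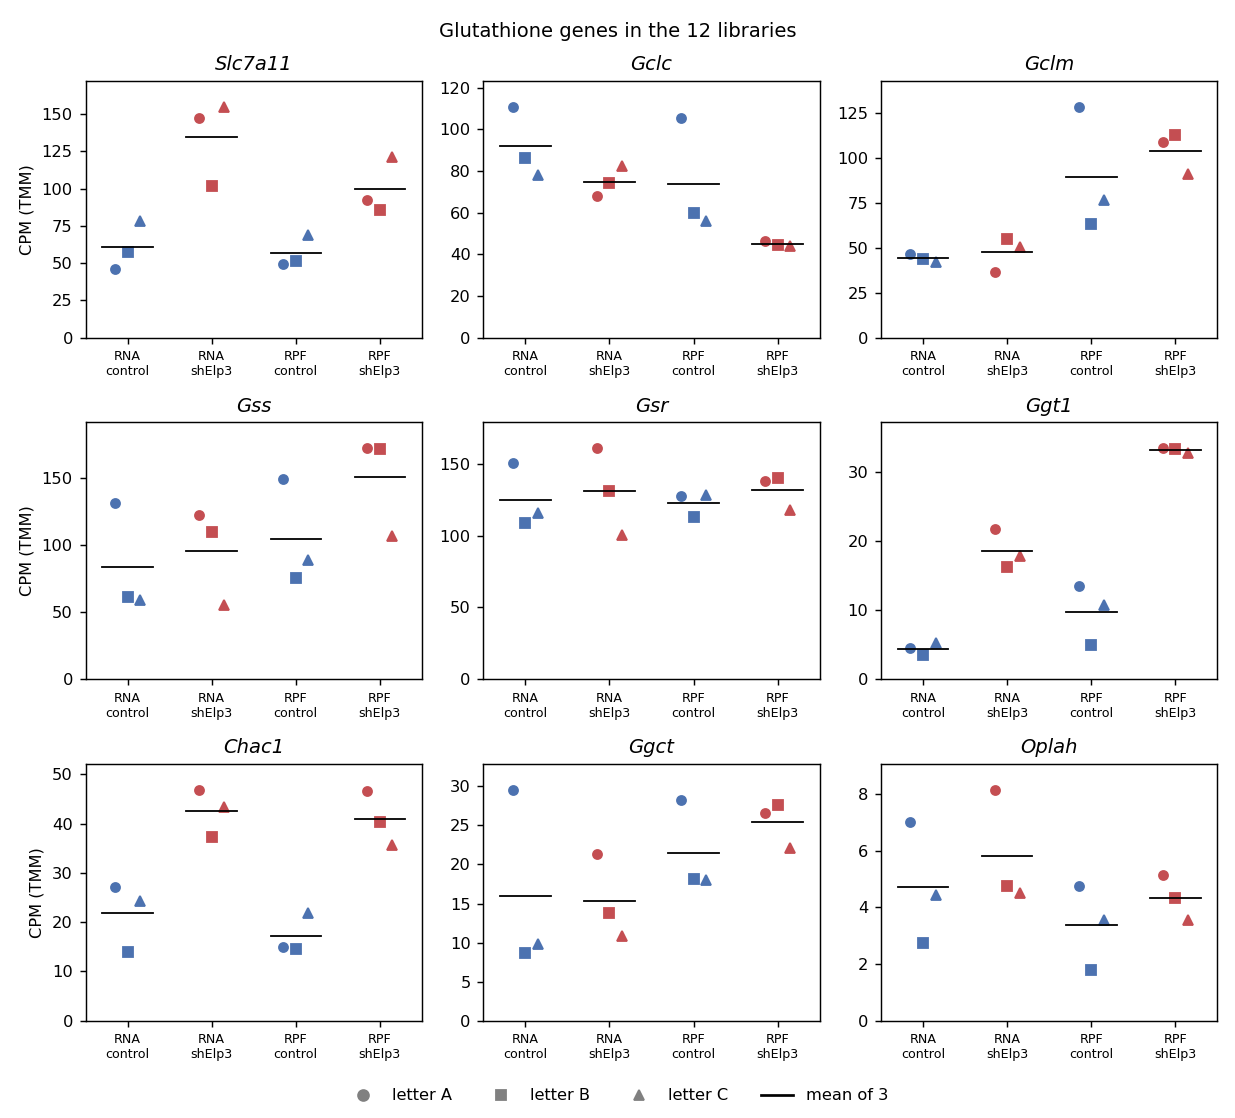
Levels in CPM scaled by TMM (vertical axis, starting at 0 in each panel) of the 9 genes in the 12 libraries, grouped by fraction and shRNA; each symbol is a library, its shape gives the letter, and the black line is the mean of 3. Slc7a11, Ggt1 and Chac1 have all 3 shElp3 libraries above all 3 control libraries in both fractions, and Gclc has them below in RPF; the letter A control library is the highest of its group in RNA for 7 of the 9.

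The transport subunit works only with the heavy chain encoded by Slc3a2, which several amino acid transporters share. Slc3a2 was at 278 ± 24.3 CPM in control RNA and 295 ± 49.9 CPM in shElp3 RNA (SD, n = 3), a log2 fold change of 0.09, and at -0.10 in footprints, with overlap between the groups in both fractions. Neither passed the edgeR test (adjusted p = 0.946 and 0.715).

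Among the synthesis genes, none passed the edgeR test in either fraction. Gclc, on chromosome 9 (77754535 to 77794489), encodes the catalytic subunit of glutamate-cysteine ligase and was the member with the lowest log2 values. Its footprints were 105.5, 59.9 and 55.9 CPM in control libraries A, B and C and 46.6, 44.6 and 44.2 CPM in shElp3. All 3 knockdown libraries lay below the control libraries, and they lay within a narrow range. The log2 fold change in footprints was -0.71 (SE 0.25, interval -1.28 to -0.14; edgeR adjusted p = 0.140). In RNA the control levels were 110.8, 86.3 and 78.2 CPM and the shElp3 levels 67.7, 74.4 and 82.4 CPM, with overlap, for a log2 fold change of -0.29 with an SE of 0.22 (edgeR adjusted p = 0.701). Control library A was the highest of the 6. Without it the footprint log2 fold change was -0.37, and was called (edgeR adjusted p = 0.0393, with 24.8% of all genes called).

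Gclm encodes the modifier subunit of the same ligase, on chromosome 3 (122245487 to 122267215). Its RNA was 46.8, 43.9 and 42.3 CPM in control and 36.8, 55.02 and 50.7 CPM in shElp3, and its footprints were 128.6, 63.2 and 76.4 CPM in control and 108.7, 112.9 and 91.0 CPM in shElp3. The groups overlapped in both fractions. The log2 fold changes were 0.10 in RNA (SE 0.23, interval -0.44 to 0.63) and 0.22 in footprints (SE 0.26, interval -0.38 to 0.82), neither called by edgeR (adjusted p = 0.932 and 0.652). The fitted values of Gclc and Gclm had opposite signs in both fractions, except in RNA without shElp3 library B, where Gclm was at -0.024. Within letter A both genes were below 0, at -0.71 and -0.35 in RNA and at -1.18 and -0.24 in footprints. In letter C RNA both were above 0, at 0.08 and 0.26. Signs were opposite in letter B and in letter C footprints. The difference between the subunits was not tested.

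Gss, the synthetase that adds glycine, lies on chromosome 2 (155563181 to 155592810). Control RNA A, at 131.6 CPM, stood above B and C, at 60.8 and 59.2 CPM, and the shElp3 levels of 122.0, 109.9 and 55.4 CPM overlapped them. In footprints the control levels were 149.3, 75.4 and 88.7 CPM and the shElp3 levels 172.1, 171.8 and 106.8 CPM, with overlap through control A. The log2 fold change was 0.19 in RNA (SE 0.42) and 0.53 in footprints (SE 0.29, interval -0.15 to 1.20; edgeR adjusted p = 0.928 and 0.323). From letters B and C alone, the footprint values of Gss (0.76, edgeR adjusted p = 0.0183) and Gclm (0.54, 0.0264) were called higher, in a fit that called 21.7% of all genes. Without control library A, 5 of the 7 tested members were called in footprints, beside 24.8% of all genes: Slc7a11, Gclm, Gss and Ggct higher and Gclc lower.

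Gsr, the NADPH-dependent reductase that returns oxidised glutathione to its reduced form, had the smallest SE in footprints of the 9 members. They were 127.5, 113.0 and 128.1 CPM in control and 138.2, 140.4 and 117.6 CPM in shElp3. On the log2 scale their fold change was 0.10 (SE 0.13, interval -0.20 to 0.41; edgeR adjusted p = 0.683). In RNA the levels were 150.9, 108.7 and 115.7 CPM in control and 161.0, 130.9 and 100.7 CPM in shElp3, with overlap and with letter A the highest of each group. The log2 fold change was 0.07 (SE 0.26; edgeR adjusted p = 0.964). Gsr lies on chromosome 8 (33653238 to 33698162).

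Breakdown genes held both of the values that had chosen the set. Ggt1, on chromosome 10 (75561076 to 75586193), encodes the cell-surface gamma-glutamyltransferase, which removes the glutamyl residue from extracellular glutathione. Its RNA was 4.55, 3.48 and 5.26 CPM in control and 21.7, 16.3 and 17.7 CPM in shElp3. Its footprints were 13.4, 4.97 and 10.7 CPM in control and 33.4, 33.3 and 32.7 CPM in shElp3. The knockdown libraries lay far above the control libraries, and in footprints all 3 fell within 1 CPM of each other, with an SD of 0.358 CPM. Counts behind these levels ran from 38 to 362 reads in RNA and from 50 to 323 in RPF. The log2 fold change was 2.07 in RNA and 1.78 in footprints, which is 4.19-fold and 3.43-fold, and within letters A, B and C it was 2.22, 2.17 and 1.72 in RNA and 1.30, 2.69 and 1.59 in footprints.

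Close to Ggt1, Ggt5, another gamma-glutamyltransferase gene, lies 3134 bases away and Lrrc75b lies 396 bases away in the RefSeq table. Ggt5 footprints rose, from 1.40, 0.994 and 0.547 CPM in control to 3.77, 2.68 and 4.72 CPM in shElp3, without overlap. The log2 fold change of Ggt5 was 1.96 with an SE of 0.43 (edgeR adjusted p = 0.0454), on 6 to 44 reads per library. Ggt5 passed the count filter through its shElp3 libraries, with 30, 26 and 44 reads, where control A, B and C had 10, 10 and 6. Its call is therefore given as a description. That call ended without control library B (adjusted p = 0.148) or C (0.126), and without shElp3 library A (0.180), B (0.162) or C (0.168), where no gene of the table was called. Ggt5 RNA, which did not pass the count filter, was 0.522, 0.275 and 0.277 CPM in control and 1.86, 0.713 and 1.26 CPM in shElp3, on 3 to 31 reads. Lrrc75b had log2 fold changes of 0.32 in RNA (edgeR adjusted p = 0.806) and 0.43 in footprints (0.526). Whether reads were shared between these neighbours was not tested.

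Chac1, on chromosome 2 (119351242 to 119354326), encodes the cytosolic enzyme that cleaves glutathione to 5-oxoproline and cysteinylglycine, and is a known target of ATF4. Its RNA was 27.1, 13.9 and 24.3 CPM in control and 46.9, 37.2 and 43.4 CPM in shElp3. Its footprints were 14.99, 14.5 and 21.9 CPM in control and 46.7, 40.4 and 35.7 CPM in shElp3. The groups did not overlap in either fraction. The log2 fold change was 0.96 in RNA and 1.25 in footprints, or 1.95-fold and 2.38-fold, and within letters it was 0.79, 1.41 and 0.83 in RNA and 1.63, 1.46 and 0.70 in footprints.

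The downstream cytosolic enzymes had overlapping groups. Ggct, which releases 5-oxoproline from gamma-glutamyl amino acids, lies on chromosome 6 (54985095 to 54992960). Its RNA was 29.6, 8.71 and 9.77 CPM in control and 21.3, 13.8 and 10.8 CPM in shElp3, so that control A was 3.20 times the mean of B and C. The RNA log2 fold change was -0.07 (SE 0.52, interval -1.28 to 1.15; edgeR adjusted p = 0.984), which turned to 0.011 with upper quartile factors, to 0.081 with the letter block and to 0.73 without control A. In footprints Ggct was 28.3, 18.1 and 17.9 CPM in control and 26.6, 27.6 and 22.1 CPM in shElp3, a log2 fold change of 0.25 with an SE of 0.22 (edgeR adjusted p = 0.535). It was called higher in footprints without control library A (0.48, adjusted p = 0.0452).

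Oplah, the ATP-dependent enzyme that turns 5-oxoproline into glutamate, was a low-count gene, with 30 to 136 RNA reads and 18 to 42 RPF reads per library. It lies on chromosome 15 (76296603 to 76331181), where its span overlaps those of Exosc4 and Smpd5, so reads of Exosc4, the more abundant of these, could be mixed with it. Its RNA was 7.01, 2.75 and 4.43 CPM in control and 8.16, 4.75 and 4.50 CPM in shElp3, and its footprints were 4.76, 1.79 and 3.55 CPM in control and 5.15, 4.33 and 3.54 CPM in shElp3. The log2 fold changes of 0.30 in RNA (SE 0.42, interval -0.69 to 1.29) and 0.38 in footprints (SE 0.38, interval -0.51 to 1.27) were not called by edgeR (adjusted p = 0.868 and 0.601).

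Counted over the set, all 9 members passed the count filter in both fractions. Of the 7 tested members 0 were called in RNA, where edgeR called 1.14% of 12274 genes, and 0 in footprints, where it called 4.83% of 11343 genes, 201 higher and 347 lower, or 277 higher and 270 lower with upper quartile factors. At an unadjusted p under 0.05 the counts were 1 of 7 (Slc7a11) and 2 of 7 (Slc7a11 and Gclc), beside 12.4% and 23.1% of all genes. DESeq2 called 1 of 7 (Slc7a11) in each fraction, beside 5.31% and 11.5%. The median log2 fold change of the 7 was 0.10 in RNA and 0.25 in footprints, beside -0.02 and -0.01 over all genes tested. Leaving Ggt1 and Chac1 aside, groups did not overlap for 1 of the 7 in RNA (Slc7a11) and 2 of the 7 in footprints (Slc7a11 and Gclc), beside 19.8% and 30.8% of all genes tested. Each of these counts is near its background.

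**Figure D2:**
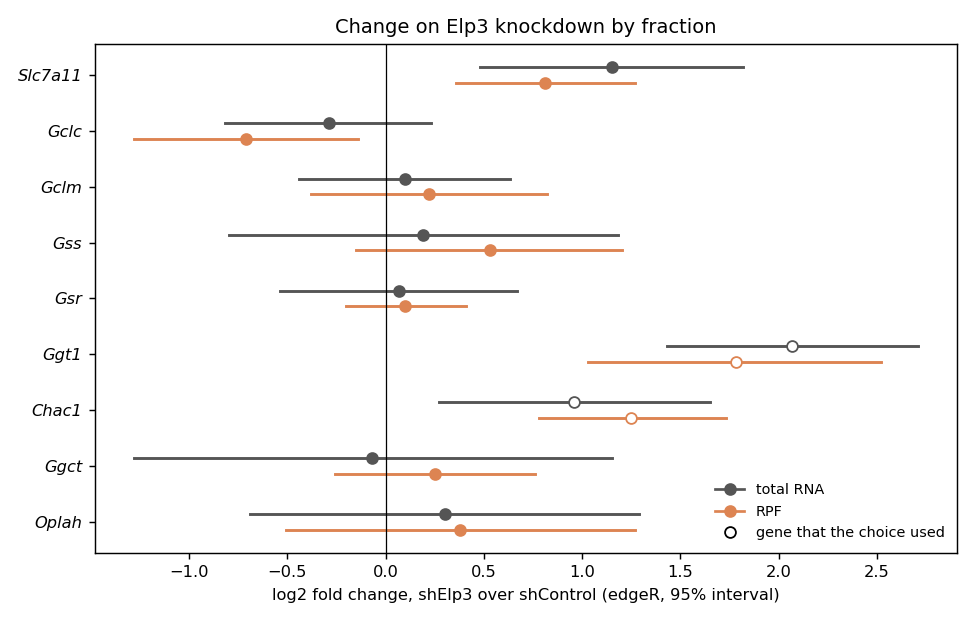
Log2 fold change of shElp3 over shControl (horizontal axis) of the 9 genes in total RNA (grey) and RPF (orange), with 95% intervals from the edgeR fits of 3 against 3 libraries; open symbols mark the 2 genes whose increase was known when the set was chosen. Among the filled symbols Slc7a11 lies at 1.15 in RNA and 0.81 in RPF, Gclc at -0.29 and -0.71, and the intervals of the other 5 genes include 0 in both fractions. The intervals at the open symbols are a description and no test, since the choice used those values.

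Footprints were then set against RNA to ask whether ribosome occupancy per transcript, or translational efficiency (TE), differed between shRNAs. No gene was called, 0% of 11238, by edgeR as the interaction of fraction and shRNA, nor by DESeq2, and 62 genes had an unadjusted edgeR p under 0.05. None of the 7 tested members was among these. Slc7a11 had a TE change of -0.38 (SE 0.35, interval -1.15 to 0.39) and Gclc one of -0.47 (SE 0.35, interval -1.23 to 0.29), while Gss had 0.28 (SE 0.56) and Gsr -0.01 (SE 0.29), which turned to 0.015 with RLE factors. The edgeR adjusted p was 1 for each of them. For Slc7a11 the log2 ratio of RPF to RNA was 0.28, -0.02 and -0.07 in control cultures A, B and C and -0.57, -0.18 and -0.25 in shElp3. Its 3 knockdown cultures lay below its 3 control cultures, and for Gclc, at 0.11, -0.39 and -0.37 in control and -0.43, -0.66 and -0.80 in shElp3, they did as well. The nearest control and knockdown values were -0.07 and -0.18 for Slc7a11 and -0.39 and -0.43 for Gclc. How often all genes separate in this way was not counted. For Ggt1 and Chac1 the TE values were -0.34 and 0.24, given with no test, and their cultures overlapped. With the culture as a block 0 genes were called as well. The intervals of Slc7a11 and Gclc include a fall of 1 log2 unit, that of Gss includes a rise of 1, and those of Ggct and Oplah include a rise or a fall of that size.

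In control cells, which the choice did not compare between fractions, the members differed in how many footprints they carried per RNA read. Gclm was the only one of the 7 tested members that was called, with more footprints than RNA. Its log2 ratio was 1.63, 0.66 and 0.97 in control cultures A, B and C, and the fitted value was 1.16 (SE 0.26, edgeR adjusted p = 0.00533). That is 1 of 7, or 14.3%, where edgeR called 36.5% of all 11238 genes, so the share of members called was not above the background. The mean ratio of Gclm stood at percentile 91.7 of all genes tested. Its catalytic partner Gclc, with a fitted value of -0.17 (SE 0.25; edgeR adjusted p = 0.621), stood at percentile 41.0. Gclm kept its call in every alternative, with fitted values of 0.83 to 1.35 and edgeR or DESeq2 adjusted p of 0.000119 to 0.0310, in fits that called 2196 to 7294 genes.

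None of the other 6 tested members was called. Slc7a11 had a control value of 0.04 (SE 0.25), or -0.012 with a minimum count of 50, Gsr one of 0.12 (SE 0.20), Gss 0.47 (SE 0.39), Ggct 0.56 (SE 0.43) and Oplah -0.36 (SE 0.43), with edgeR adjusted p of 0.323 to 0.911. With the culture as a block, Gss (0.50, edgeR adjusted p = 0.0251) and Ggct (0.75, 0.0444) were called too, in a fit that called 47% of all genes. Letters B and C alone gave calls for Gclm, Ggct (1.12) and Gclc (-0.35), with 64.6% of all genes called, and without control culture A the calls were Gclm and Ggct (1.10), with 49.2% called. For Ggct, culture A had a log2 ratio of 0.11 where B had 1.18 and C 0.98. Ggt1 had a control value of 1.27 and stood at percentile 93.1, and Chac1 had -0.21, or 0.082 from letters B and C alone, and stood at percentile 42.8, both given as description.

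**Figure D3:**
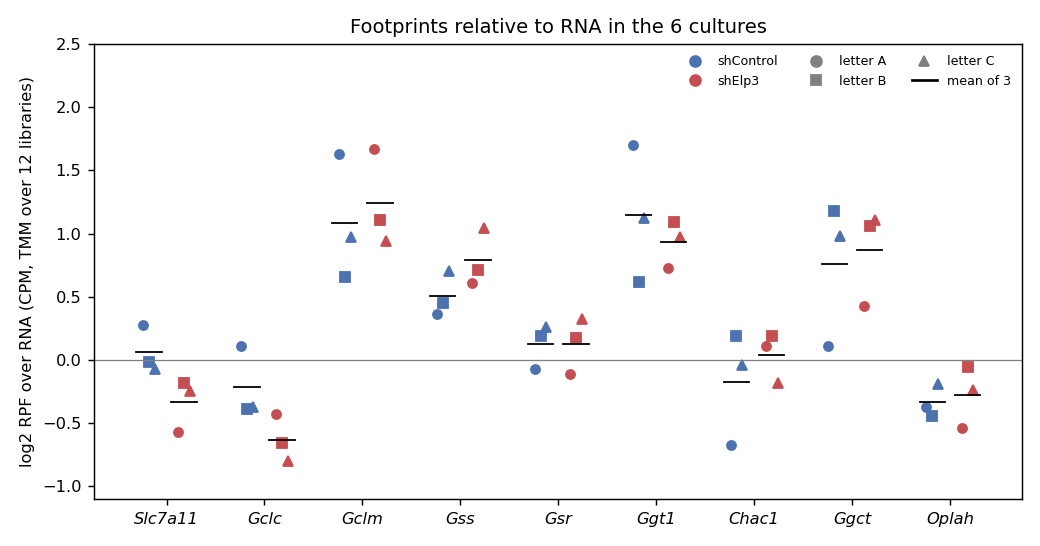
Log2 ratio of RPF to RNA level (vertical axis, CPM on the TMM scaling of all 12 libraries) of the 9 genes in the 6 cultures; colour gives the shRNA, shape the letter, and the black line the mean of 3. Gclm, Gss, Ggt1 and Ggct lie above 0 in all 6 cultures, and for Slc7a11 and Gclc the 3 shElp3 cultures lie below the 3 shControl cultures. The share of all genes that separate in this way was not counted.

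Other genes of glutathione and cysteine metabolism were read from lists of 78 genes, of which 59 passed the count filter in each fraction. In RNA 0 of the 59 were called by edgeR, beside 1.14% of all genes, while 2 had an unadjusted p under 0.05, beside 12.4%, and DESeq2 called 1 (Cbs), beside 5.31%. When the letter entered as a block, 3 were called higher and 0 lower, beside 12.2% of all genes. These were Cbs, which starts transsulfuration from homocysteine towards cysteine, Gstm6, a glutathione transferase (0.86, edgeR adjusted p = 0.0387), and Trib3, a pseudokinase induced by ATF4 and CHOP. In footprints 1 of 59, Ggt5, was called by edgeR, or 1.69% beside 4.83% of all genes, and 16 of 59 had an unadjusted p under 0.05, beside 23.1% of all genes. Ggt5 passed the footprint filter through its shElp3 libraries, so its call is a description. DESeq2 called 6 there, all higher (Adh5, Ggt5, Gstm5, Gsto1, Mgst1 and Trib3), beside 11.5% of all genes.

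Cbs RNA was 8.13, 3.85 and 6.27 CPM in control and 14.5, 15.8 and 12.1 CPM in shElp3, and its groups did not overlap. Its log2 fold change was 1.21 (SE 0.33, edgeR adjusted p = 0.166), and 1.24 with the letter block (adjusted p = 0.00981). In footprints it was 15.8, 2.58 and 4.92 CPM in control and 20.1, 17.2 and 20.2 CPM in shElp3 and the fold change on the log2 scale was 1.34 (SE 0.56; edgeR adjusted p = 0.202), with control A far above B and C. The next enzyme of the route, Cth, had 0.41 in RNA and 0.31 in footprints and was not called by edgeR (adjusted p = 0.719 and 0.426).

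Regulators of the members had medians of -0.05 in RNA, or 0.03 with upper quartile factors, and 0.09 in footprints over 11 genes, none called by edgeR in either. Nfe2l2, which encodes NRF2, had 0.03 and 0.27, and its inhibitor Keap1 had 0.40 and 0.37. Atf4 had -0.06 in RNA and 0.21 in footprints, and Ddit3, which encodes CHOP, had -0.05 and -0.30. Trib3 was 193.8, 120.8 and 173.8 CPM in control RNA and 299.2, 283.9 and 229.5 CPM in shElp3 RNA, with no overlap. In RNA 19.8% of all genes tested had groups without overlap. The Trib3 log2 fold change was 0.73 (SE 0.26, edgeR adjusted p = 0.289) and 0.75 with the letter block (adjusted p = 0.0259). Other regulators had lower values in RNA and footprints: Ddit4 -0.46 and -0.67, Mafk -0.47 and -0.69, Bach1 -0.13 and -0.55, Atf3 -0.51 and -0.06. Of the 11 genes, 5 lay above 0 in RNA and 6 in footprints, or 7 in each with upper quartile factors.

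Glutathione peroxidases had a median of -0.28 in RNA and -0.30 in footprints, with 4 of 4 values below 0 in each, or 3 of 4 with upper quartile factors, and none called by edgeR. Gpx4, the peroxidase that reduces lipid peroxides, had -0.07 in RNA and -0.41 in footprints (edgeR adjusted p = 0.985 and 0.594), and Prdx6 had -0.29 and -0.05. Glutathione transferases had a median of 0.13 in RNA and 0.40 in footprints over 19 genes, beside -0.02 and -0.01 over all genes tested. In footprints 16 of the 19 values lay above 0, and none of the 19 was called by edgeR in either fraction. The most abundant in footprints, Gstp2 and Gstm1, had 0.56 and -0.04 there (edgeR adjusted p = 0.167 and 0.954). Gsto1 (0.94, SE 0.22) and Mgst1 (0.70, SE 0.16) had footprint values just short of the threshold, each with an edgeR adjusted p of 0.0501. The Gstp genes are near-identical copies and the Gstm genes are related to each other, so single counts in these families are uncertain. Glutaredoxins and glyoxalases had medians of -0.20 in RNA and 0.15 in footprints over 8 genes, and the 4 tested export pumps had 0.04 and -0.14, with Abcc1 at 0.09 and 0.02. Cystine and cysteine supply genes had medians of 0.26 and 0.09 over 6, and the other gamma-glutamyl cycle enzymes 0.21 and 0.14 over 7. Anpep, a surface peptidase that splits cysteinylglycine, had 0.61 in RNA and 0.14 in footprints, and Ggt7 had -0.15 and -0.37.

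**Figure D4:**
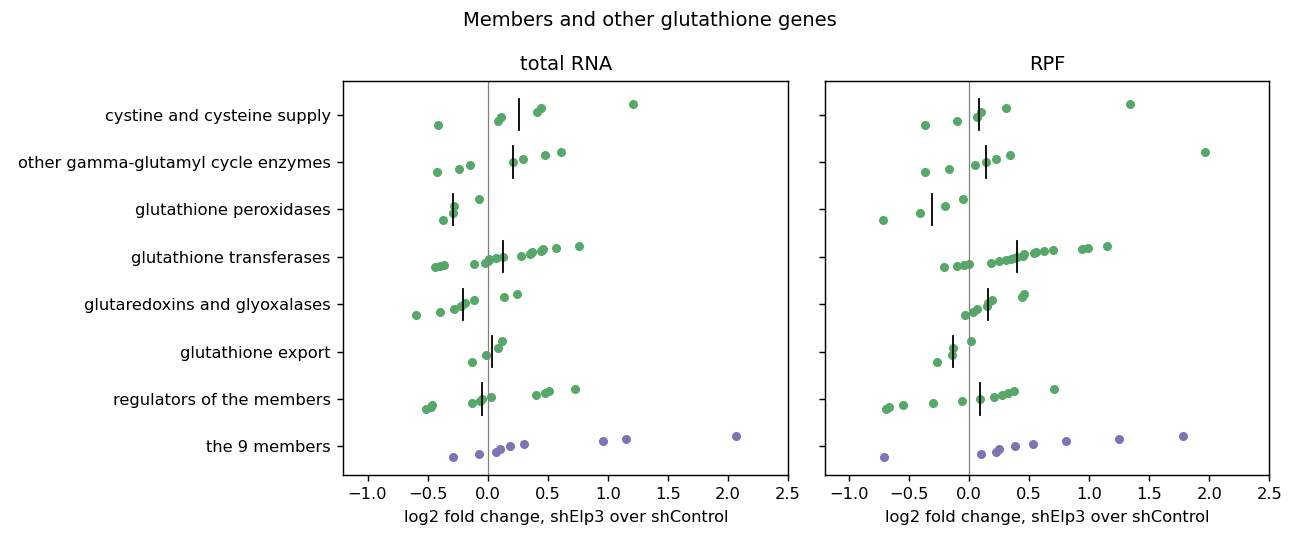
Log2 fold change of shElp3 over shControl (horizontal axis) of each tested gene of 7 lists (green, black line at the list's median) and of the 9 members (purple), in total RNA (left) and RPF (right). The peroxidases lie below 0 in both fractions (3 of 4 with upper quartile factors), the transferases have a median of 0.40 in RPF, and the rightmost RPF points are Ggt5 at 1.96 and Ggt1 at 1.78.

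In the comparison of footprints with RNA in control cells, 17 of 58 genes of these lists were called by edgeR, 12 with more footprints and 5 with fewer, beside 36.5% of all genes. Slc3a2 (1.66), Slc1a4 (0.97), Anpep (2.55), Gpx8 (1.30), Abcc5 (0.92), Abcg2 (0.91) and Nfe2l2 (1.62) were higher, as were the transferases Gstm1 (2.30), Gstm2 (1.19), Gstm7 (0.99), Gstt1 (0.95) and Gsto1 (1.11). Lower were Glrx3 (-5.97, on 8, 13 and 11 footprint reads against 1523, 679 and 677 RNA reads in control A, B and C), Keap1 (-0.76), Bach1 (-0.81), Mafg (-0.84) and Mafk (-2.01). For the antiporter this places the heavy chain Slc3a2 at 1.66 (SE 0.20) and the transport subunit Slc7a11 at 0.04 (SE 0.25), a difference that was not tested. In the TE comparison 0 of the 58 were called by edgeR or DESeq2, and 0 had an unadjusted p under 0.05.

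Genes with the profile most like that of Ggt1 and of Chac1 were sought among 10856 named genes, by Pearson correlation of log2 CPM over the 12 libraries after centring within each fraction. The libraries share cultures in pairs and split by shRNA, so the values are a description. For Ggt1 the closest were Prkcd (r = 0.992), Tmem150a (0.984) and Ptk7 (0.977). For Chac1 they were Cnbd2 (0.976), Nradd (0.971) and Aox1 (0.968). Their log2 fold changes in RNA and footprints were 0.92 and 0.84 for Prkcd, 1.68 and 1.30 for Tmem150a, 1.54 and 1.03 for Ptk7, 1.49 and 1.84 for Cnbd2, 1.61 and 1.89 for Nradd and 0.52 and 0.51 for Aox1.

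Melanocyte markers lay below 0 in 9 of 9 cases in both fractions under each scaling tried. Their medians were -0.52 in RNA and -0.83 in footprints, beside -0.02 and -0.01 over all genes tested. Pmel was the only 1 of the 9 called by edgeR, lower in RNA (-1.59, adjusted p = 0.0396) and footprints (-1.81, 0.0364). Over all genes edgeR called 1.14% and 4.83%. The most abundant markers, Dct and Tyrp1, had RNA values of -0.89 and -0.10 (edgeR adjusted p = 0.241 and 0.959). Of the 7 fibroblast markers 3 passed the count filter (Col1a1, Pdgfra and Pdgfrb), all with log2 values above 0, and the summed RNA level of the 7 was 24.2 to 58.7 CPM in control and 46.4 to 94.7 CPM in shElp3. The other 4 were at or near 0: Col1a2 RNA was 0.442 CPM in control and 0.185 CPM in shElp3, Col3a1 and Lum had at most 1 read in any library, and Dcn had 0 in all. Of the 3 tested, only Col1a1 was called, higher in footprints (1.48, edgeR adjusted p = 0.0203), and none was called in RNA. Leukocyte and macrophage markers summed to 7.70 to 22.6 CPM in control RNA and 6.31 to 12.1 CPM in shElp3 RNA. Of these last 9 markers 2 were at 0 in all RNA libraries. The part of these shifts in the values of Slc7a11, Ggt1 and Chac1 was not tested.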

How the data were processed

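Per the labels' protocols, the TruSeq Ribo Profile (Mammalian) kit was used for both fractions, total RNA and ribosome-protected fragments. The authors deposited 1 table of whole-number read counts per gene symbol covering the 12 libraries, without normalization. The submitters' processing notes name bcl2fastq, Bowtie, TopHat2 2.1.1, HTSeq and the build mm10. Not given in the sources used here are the annotation, the strand setting and the region over which footprints were counted, so reads of overlapping, antisense or near-identical genes may be mixed, and footprint counts may hold reads outside coding sequence.

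Groups came from the labels. A gene entered a test if it passed filterByExpr (minimum count 10) in its fraction, or in both fractions for ratios. Counts were scaled by TMM and tested with edgeR 4.0.16 in R 4.3.3 (quasi-likelihood F test), with p-values adjusted by Benjamini-Hochberg over every gene tested (threshold 0.05). Translational efficiency was the interaction of fraction and shRNA over 12 libraries, and the control RPF to RNA value was the fraction term for shControl in that model. The SE is the log2 value divided by the root of F, and 95% intervals use the t distribution of the fit. CPM are TMM-scaled within a fraction and given as mean ± SD where averaged. Log2 CPM for ratios and correlations used a prior count of 2. The code was tested on simulated data. Gene positions and promoters are from RefSeq tables of GRCm38.p6.

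The members and all gene lists were chosen with earlier results of these data known. The genes named are the 9 members, the 3 genes most correlated with Ggt1 and with Chac1, and of each list the called genes or up to 2 of the most abundant. Cth, Keap1, Ddit4, Atf3, Gsto1, Mgst1 and Lrrc75b were added after their values were seen. Alternatives were DESeq2 1.42.0, RLE and upper quartile factors, no filter or a minimum count of 50, a block for replicate letter or culture, letters B and C alone, each library left out, and the 20 most abundant genes left out. Same-letter libraries of the 2 shRNAs had correlated deviations from their group means in RNA (r of 0.807, 0.423 and 0.582 for A, B and C) and in the RPF to RNA ratio (0.763, 0.460 and 0.487), so blocked values stand beside the results they change. Across shRNAs, B with C gave similar values in RNA (0.688 and 0.579) and in the ratio (0.513 and 0.582). These values set letter A apart and do not show B and C to be separate pairs. In RPF the same-letter values were 0.328, -0.107 and 0.215, so RPF letters were not taken as pairs.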

Additional observations from a re-analysis of the deposited data

How the results depend on the processing

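The genes called in RNA (140) became 652 with DESeq2, 1499 with the replicate block, 2377 from letters B and C alone and 0 to 540 on leaving out each library, with 0 for every library other than control A. Those called in RPF (548) became 1308 with DESeq2, 2477 from letters B and C alone and 0 to 2856 on leaving out each library, where 2856 came without control A, 52 without control B, 59 without control C and 0 without any 1 of the shElp3 libraries. In RPF, where letters were not taken as pairs, the replicate block gave 666 calls, and the Ggt5 call ended under it (adjusted p = 0.0634). Of the 7 tested members, calls in RNA went from 0 to 1 (Slc7a11) with DESeq2, with the replicate block and from letters B and C alone. In RPF they went from 0 to 1 (Slc7a11) with DESeq2, upper quartile factors, no count filter and the replicate block (0.81, edgeR adjusted p = 0.0220), to 3 from letters B and C alone, and to 0 to 5 on leaving out each library. TE calls were 0, except 2 genes from letters B and C alone. The control RPF to RNA calls (4100) became 7294 from letters B and C alone and 2196 to 5611 on leaving out each culture, and the tested members called went from 1 to 3 with the replicate block or letters B and C alone and 1 to 2 on leaving out each culture. Signs turned in these cases: Ggct RNA was 0.011 with upper quartile factors, 0.081 with the replicate block and 0.40 from letters B and C alone, and Gsr TE was 0.015 with DESeq2, 0.015 with RLE factors and 0.036 from letters B and C alone. With those letters Ggt1 TE was 0.078, Chac1 TE -0.035, Slc7a11 control ratio -0.021 and Chac1 control ratio 0.082, and the Slc7a11 control ratio was -0.012 with a minimum count of 50. Leaving out each library or culture turned signs in RNA for Gclm -0.024 to 0.25, Gss -0.026 to 0.67, Gsr -0.11 to 0.24, Ggct -0.39 to 0.73, Oplah -0.04 to 0.71. It also did so in TE for Gclm -0.13 to 0.4, Gsr -0.13 to 0.19, Chac1 -0.018 to 0.38, Ggct -0.27 to 0.61, Oplah -0.084 to 0.28 and in control ratio for Slc7a11 -0.04 to 0.12, Chac1 -0.33 to 0.062. Oplah has no RPF or ratio value at a minimum count of 50, since it did not pass that filter. Slc7a11, Ggt1 and Chac1 kept values above 0, and Gclc below 0, in RNA and RPF in all 14 alternatives. The cause of these shifts was not tested. Oplah and Ggt5 had 18 to 42 and 6 to 44 RPF reads per library, and the part of depth in their intervals was not tested.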
